A study of Mus musculus with 22 samples.

Results

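Acetylation of histone H3 at lysine 27 (H3K27ac) was examined at 9 genes in mouse myeloid progenitors carrying a truncating deletion in Bcor. The genes encode Bcl6 and its close relative Bcl6b, the BTB zinc-finger factors Zbtb16 (PLZF), Zbtb7a (LRF) and Zbtb7b (ThPOK), the zinc-finger repressor Bcl11a, and 3 parts of a corepressor complex, Ncor1, Hdac3 and Tbl1xr1. They were chosen by name from 21938 protein-coding genes, for their place in the pathway in which Bcor acts. Earlier results of these data were known by then, so the comparisons with all genes below do not rest on a blind choice. For each gene, all peaks overlapping the gene body or lying within 20 kb of it were taken from the H3K27ac peak lists of 3 libraries. These windows held 60, 58 and 54 peaks in replicates 1, 2 and 3, out of 23410, 25963 and 23758 peaks in the lists.

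BCL6 is a sequence-specific repressor whose amino-terminal BTB domain binds corepressors, among them BCOR, which was named as the BCL6 corepressor, and NCOR1. The NCOR1 complex holds the deacetylase HDAC3 and the WD40 protein TBL1XR1, and HDAC3 takes acetyl groups off histones. BCL6 is best known in germinal centre B cells, PLZF in innate-like lymphocytes and the germ line, LRF in erythroid and lymphoid fate choices, ThPOK in CD4 T cells, and BCL11A in B cells and in the silencing of fetal globin. H3K27ac marks active promoters and enhancers.

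The cells were Lin- cKIT+ Sca-1- (KL) progenitors sorted from the bone marrow of C57BL/6 mice of genotype scl-Cre-ERT +; Bcorfl/y, injected with 1 mg tamoxifen on each of 5 days at an age of 3 to 6 months and taken 20 weeks later. Tamoxifen switches on a Cre recombinase driven by the stem-cell enhancer of Tal1 (Scl). This recombinase cuts exons 9 and 10 out of the X-linked Bcor gene, so that all 3 libraries are BcorΔE9-10. The paper reports that this allele still gives a truncated protein at a low level, without the domain required to bind the Polycomb complex PRC1. The series has 22 samples, and its other 19, with other antibodies, genotypes or input DNA, were left aside. Since BcorWT cells had no H3K27ac library among those analysed here, no value below is an effect of Bcor loss. The labels give the libraries replicate numbers without tying each to a mouse, although 3 BcorΔE9-10 mice are named in the methods of the study, so the spread may be technical in part.

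Depth came to 18.0, 18.9 and 19.3 M reads, and the weakest summits in the lists held 8, 8 and 9 fragments, below which acetylation was not represented. As a check of cell type, all 6 marker genes of myeloid progenitors (Kit, Myb, Cebpa, Spi1, Mpo and Gata2) had a peak at a transcription start site (TSS) in all 3 libraries, with mean fold enrichments between 6.29 and 9.77. None of 4 mature myeloid genes (S100a8, Ngp, Ltf and Camp), of 3 lymphoid genes and of 3 non-haematopoietic genes (Col1a1, Cdh5 and Alb) did, and the exceptions in a single library were Ngp at 5.29 and 1 lymphoid gene at 3.0, both in replicate 2. Fold enrichment, as the peak caller computed it, is the fragment count at a peak's summit over the local background, with 1 added to each. In replicate 3 a factor of 0.983 was first applied to the fragments. Values of fold enrichment are linear and are not scaled between libraries. The median at the TSS of all genes with a peak there was 9.07, 9.26 and 10.7 in the 3 libraries, so replicate 3 ran higher, and the highest value of 6 of the 8 members with TSS peaks was also in replicate 3.

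To ask which of these genes carried promoter acetylation, peaks within 2.5 kb of a protein-coding TSS of the gene were called TSS-proximal. 8 of the 9 members had such a peak in all 3 libraries, against 43.4% of all protein-coding genes (9524 of 21938). Bcl6b had none in any library. Levels at the other 8 spanned from 27.6 at Bcl6 to 5.85 at Zbtb16 in mean fold enrichment, with a median of 10.6 beside 10.2 for the 9524 genes. The members fell on either side of the median of all genes, 4 above it (Bcl6, Ncor1, Zbtb7a and Tbl1xr1) and 4 below it (Bcl11a, Hdac3, Zbtb7b and Zbtb16). The strongest TSS region also fell in the TSS window of another gene at all of them but Zbtb16 and Zbtb7a, the neighbour being the noncoding or predicted gene Gm37419 at Bcl6, Gm43672 at Tbl1xr1 and Gm15417 at Zbtb7b, and those named below at the others.

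**Figure D1:**
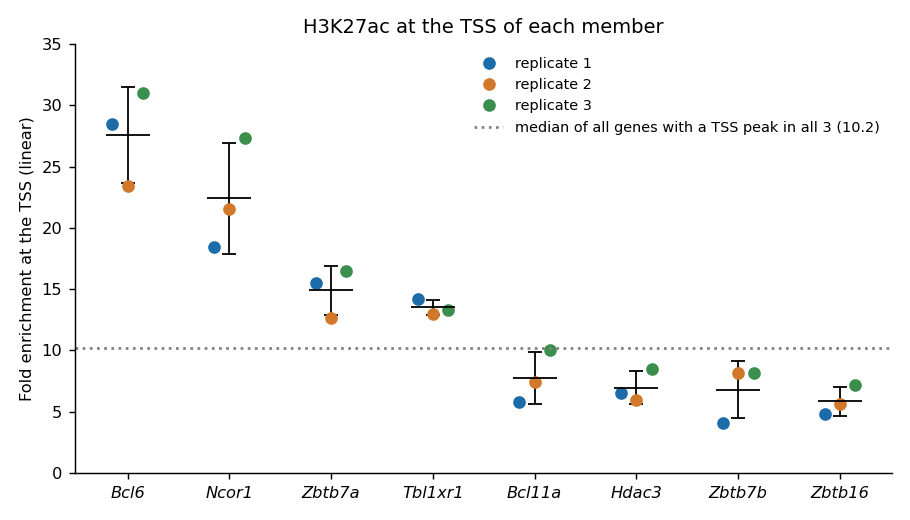
Fold enrichment of the strongest TSS-proximal H3K27ac peak (linear axis) at each of the 8 members with such a peak, with a point for each library, a bar for the mean and whiskers for the SD (n = 3). Bcl6 lies between 23.4 and 31.0 in every library, and the 4 genes on the right lie at or under 10.0, below the dotted line at 10.2, the median of all genes with a TSS peak in all 3 libraries.

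Bcl6, the repressor for which Bcor was named, had the highest level of the 9. The gene lies at chr16:23965052-23988852 on the minus strand (GRCm38) and has 10 exons. Its TSS peak reached fold enrichments of 28.5, 23.4 and 31.0 in the 3 libraries (27.6 ± 3.91, SD, n = 3). All 3 libraries were far above the median of all genes, with percentiles of 98.1, 96.5 and 98.4 among genes with a TSS peak in the same library. By its mean, Bcl6 ranked 203 of 9524. The summits held 83, 70 and 95 fragments, with 95% Poisson intervals of 66.1 to 103, 54.6 to 88.4 and 76.9 to 116, which overlap. These 3 summits sat 76, 69 and 73 bp past the start of the gene, in exon 1.

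A pair of 300-base promoter windows of Bcl6 (250 bases before a RefSeq start to 50 after it, GRCm38.p6) are shown because one carried this peak and the other, at a start inside the gene, carried none in any library. The first, chr16:23988803-23989102, lay inside or across the edge of the peak in all 3 libraries. The other is chr16:23981234-23981533. Both are on the minus strand and written 5′ to 3′, and capitals mark matches on either strand to 4 motifs: the GC box GGGCGG, the ETS core CCGGAA, the CCAAT box, and TTCNNNGAA, a palindrome like the sites of BCL6 and STAT factors.
Bcl6 promoter with the peak: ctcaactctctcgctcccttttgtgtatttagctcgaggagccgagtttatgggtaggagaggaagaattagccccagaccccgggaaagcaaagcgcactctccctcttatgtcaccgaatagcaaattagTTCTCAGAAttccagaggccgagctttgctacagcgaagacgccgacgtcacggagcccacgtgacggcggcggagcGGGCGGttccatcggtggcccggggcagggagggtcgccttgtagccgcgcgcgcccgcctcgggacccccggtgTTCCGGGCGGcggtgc
Bcl6 promoter without a peak: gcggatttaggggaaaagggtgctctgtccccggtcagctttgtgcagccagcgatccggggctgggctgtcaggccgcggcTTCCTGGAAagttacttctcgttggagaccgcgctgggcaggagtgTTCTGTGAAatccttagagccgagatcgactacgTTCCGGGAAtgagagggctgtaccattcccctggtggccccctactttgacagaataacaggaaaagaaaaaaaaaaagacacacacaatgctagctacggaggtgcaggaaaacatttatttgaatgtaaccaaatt
The acetylated promoter was 62.7% G and C with 31 CpG, against medians of 52.7% and 7 CpG over 32817 promoter windows. It held 2 GC boxes, 1 of which overlaps an ETS core, and 1 TTCNNNGAA. A GC box is present in 35.6% of all promoter windows, an ETS core in 14.9% and TTCNNNGAA in 8.29%. The internal window had 14 CpG, no GC box and 3 matches to TTCNNNGAA, 1 of them overlapping an ETS core, and 11 of the 32817 windows (0.0335%) held 3 or more. These counts describe letters in a window and are not binding sites.

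Little other acetylation was found around Bcl6. Outside the TSS, the window held a peak in intron 1 at chr16:23984601-23984824, 4.15 kb into the gene, with a fold enrichment of 4.88 in replicate 3 and no peak in replicates 1 and 2. No peak was found in any library in the 20 kb on either side beyond the TSS peak. The TSS peak itself covered 1489, 2153 and 2241 bp in the 3 libraries, which put its breadth at the percentiles 80.7, 93.1 and 92.5, below those of its height.

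Ncor1, the scaffold of the corepressor complex, was second. The gene spans 142 kb at chr11:62316426-62458541 on the minus strand. Fold enrichment at its TSS was 18.4, 21.5 and 27.3 (22.4 ± 4.5, SD, n = 3), from 70, 85 and 110 fragments. The percentiles were 87.4, 94.5 and 96.2, and the mean ranked 642 of 9524. Replicate 1 gave the lowest value and replicate 3 the highest, and their Poisson intervals (54.6 to 88.4 and 90.4 to 133 fragments) did not overlap. This peak also lies within 2.5 kb of a TSS of Pigl, a gene of glycolipid anchor synthesis, and acetylation of the start of one gene cannot be told apart from that of the other.

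Ncor1 was the only member with flanking regions found in every library. These lay 7.84 and 8.53 kb before the gene's outermost start, outside any annotated TSS window. Flanks were not checked for the bodies of other genes, so both regions may lie inside a neighbour such as Pigl. At chr11:62466197-62466762 the fold enrichment was 3.95, 4.41 and 5.79 (4.72 ± 0.953, SD, n = 3), and at chr11:62466931-62467262 it was 3.89, 7.11 and 7.76 (6.25 ± 2.07, SD, n = 3). Both were highest in replicate 3 and lowest in replicate 1, as was the TSS peak. In contrast, no intragenic peak was called in any library across the 142 kb of the gene. The promoter (chr11:62457283-62457582) and the stretch of the stronger upstream region that all 3 libraries shared (chr11:62467038-62467215, from the RefSeq genome sequence of GRCm38.p6) are shown to set the 2 kinds of acetylated sequence side by side, on the minus strand with capitals as above.
Ncor1 promoter: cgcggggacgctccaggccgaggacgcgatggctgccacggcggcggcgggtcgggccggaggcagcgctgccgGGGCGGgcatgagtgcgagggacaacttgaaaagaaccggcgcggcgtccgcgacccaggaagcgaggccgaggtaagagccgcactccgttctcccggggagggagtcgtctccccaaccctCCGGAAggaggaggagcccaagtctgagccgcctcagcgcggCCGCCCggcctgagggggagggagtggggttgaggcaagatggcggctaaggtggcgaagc
Ncor1 upstream region: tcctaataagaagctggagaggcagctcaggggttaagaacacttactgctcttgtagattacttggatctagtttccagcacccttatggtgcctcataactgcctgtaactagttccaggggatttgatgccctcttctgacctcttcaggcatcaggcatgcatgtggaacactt
They differed in base composition. The promoter was 72.3% G and C with 36 CpG, more CpG than or as many as 94.4% of all promoter windows, and held 2 GC boxes and 1 ETS core. The upstream stretch of 178 bases was 47.2% G and C with no CpG and matched none of the 8 motifs searched, which were the 4 above and TATAAA, the E-box CACGTG, the GATA-factor core AGATAA and the RUNX core TGTGGT. Of all promoter windows, 37.4% hold a CCAAT box, 13.6% TATAAA, 7.15% the E-box, 11.2% AGATAA and 16.8% TGTGGT. Of these, the acetylated Bcl6 promoter held 1 E-box.

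Zbtb7a (chr10:81135220-81152995, plus strand) and Tbl1xr1 (chr3:22076652-22216594, plus strand) formed the next level. At the TSS, Zbtb7a had a fold enrichment of 15.5, 12.6 and 16.5 (14.9 ± 1.99, SD, n = 3) and a mean rank of 2393. Tbl1xr1 had 14.2, 13.0 and 13.3 (13.5 ± 0.641, SD, n = 3) and a mean rank of 2945. The ranges of the 2 genes overlap. Tbl1xr1 varied least of the 8 members relative to its mean.

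Zbtb7a stood out by breadth rather than height. Its TSS-proximal peaks covered 4236, 4318 and 4607 bp, at the percentiles 99.8, 99.6 and 99.7 among genes with a TSS peak, whereas its fold enrichment was at the percentiles 80.4, 70.2 and 76.9. The gene has 6 annotated protein-coding start sites, and the windows around them merge, so the length searched was also greater. There were 4 TSS-proximal regions found in all 3 libraries. The strongest lay at chr10:81137669-81139174 in intron 1, with 15.5, 12.6 and 13.8, and at chr10:81134973-81137201, with 8.93, 10.6 and 16.5. Which of these was the higher changed between libraries, the former in replicates 1 and 2 and the latter in replicate 3.

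The promoter windows of Zbtb7a (chr10:81136021-81136320) and Tbl1xr1 (chr3:22076402-22076701), both on the plus strand, are shown because peaks covered the first and flanked the other.
Zbtb7a promoter: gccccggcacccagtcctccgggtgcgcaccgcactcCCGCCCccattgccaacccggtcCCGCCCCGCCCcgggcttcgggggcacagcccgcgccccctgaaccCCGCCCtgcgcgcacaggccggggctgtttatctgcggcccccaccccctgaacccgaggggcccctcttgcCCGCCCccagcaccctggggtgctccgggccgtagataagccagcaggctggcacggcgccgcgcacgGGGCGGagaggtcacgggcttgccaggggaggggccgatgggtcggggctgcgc
Tbl1xr1 promoter: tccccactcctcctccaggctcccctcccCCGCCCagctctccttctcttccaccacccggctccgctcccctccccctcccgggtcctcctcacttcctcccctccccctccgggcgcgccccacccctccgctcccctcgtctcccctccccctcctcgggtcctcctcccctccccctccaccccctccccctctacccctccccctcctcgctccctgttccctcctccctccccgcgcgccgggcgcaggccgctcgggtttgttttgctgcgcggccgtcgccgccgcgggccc
Zbtb7a was 77.7% G and C and held 6 GC boxes, a number that 443 of the 32817 windows (1.35%) reached or passed, with 2 matches to AGATAA. Tbl1xr1 was 76.3% G and C with 1 GC box and none of the other 7 motifs. At Tbl1xr1, acetylation lay on either side of the start. The upstream region ended at chr3:22076207 and had 10.1, 12.9 and 10.0, and the downstream region began at chr3:22076640 and had 14.2, 13.0 and 13.3. A peak reached into the printed window in replicate 2 only. Of the other TSS-proximal regions of Tbl1xr1, 1 at an internal start 61.3 kb into the gene was found in all 3 libraries, with 3.41, 4.63 and 4.61.

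The remaining 4 members with TSS peaks were all below the median of all genes. Bcl11a (chr11:24078056-24174123, plus strand) had 5.78, 7.39 and 10.0 (7.72 ± 2.13, SD, n = 3). Its strongest peak lay 323 to 395 bp upstream of the gene's outermost start, within the windows of the noncoding genes Gm12063 and A830031A19Rik as well. The summits held 19, 25 and 35 fragments, and their Poisson intervals overlapped. Like Zbtb7a, Bcl11a was broad, with TSS-proximal peaks over 4004, 3507 and 4033 bp (percentiles 99.7, 99.0 and 99.3), spread over 4 annotated start sites. Its TSS-proximal peaks recurred in all 3 libraries in 3 regions, and another region joined a TSS-proximal peak of replicate 1 to intragenic peaks of the others.

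Zbtb7b (chr3:89377644-89394776, minus strand) had 4.1, 8.13 and 8.13 (6.78 ± 2.33, SD, n = 3). Replicate 1 was low, at the percentile 6.76 against 41.1 and 33.4 in the others, from 11 fragments with an interval of 5.49 to 19.7, which overlapped the intervals of the other libraries (16.2 to 36.9 and 15.4 to 35.7). With the threshold raised to a −log10 q of at least 5, Zbtb7b no longer had a TSS peak in every library. The promoter window of its RefSeq start at chr3:89393329-89393628 is shown as a promoter that no peak overlapped in any library.
Zbtb7b promoter: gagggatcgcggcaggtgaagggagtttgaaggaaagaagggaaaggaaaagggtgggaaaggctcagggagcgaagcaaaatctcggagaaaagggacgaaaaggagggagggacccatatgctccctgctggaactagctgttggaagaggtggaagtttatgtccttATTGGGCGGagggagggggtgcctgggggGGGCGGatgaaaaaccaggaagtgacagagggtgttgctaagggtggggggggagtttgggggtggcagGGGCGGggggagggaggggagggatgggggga
It had 8 CpG, near the median of 7 for all windows, and 3 GC boxes, 1 of which overlaps a CCAAT match. The region found in all 3 libraries lay upstream of it, with the shared stretch chr3:89394492-89394686, near another start of the gene. Downstream of it were peaks of 3.41 in replicate 1 and 4.28 in replicate 2, each in that library alone.

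Zbtb16 (chr9:48654297-48836222, minus strand) was the lowest of the 8, with 4.78, 5.62 and 7.15 (5.85 ± 1.2, SD, n = 3) from 13, 16 and 21 fragments. The mean ranked 8128 of 9524, and the percentiles were 13.6, 20.5 and 26.1. No promoter sequence is shown for Zbtb16, Bcl6b or Hdac3.

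Hdac3 (chr18:37935844-37955016, minus strand), the catalytic subunit of the complex, had 6.49, 5.95 and 8.45 (6.96 ± 1.32, SD, n = 3) from 18, 17 and 25 fragments. Its TSS peak was narrow, covering 361, 553 and 455 bp at the percentiles 11.7, 23.1 and 15.3, and it lies within the window of Rell2 too. The stronger peak in its window belonged to a neighbour, Diaph1, an actin-nucleating formin, whose TSS region had 8.49, 10.5 and 10.3. Fchsd1, on the other side, had 4.4, 4.25 and 4.43.

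**Figure D2:**
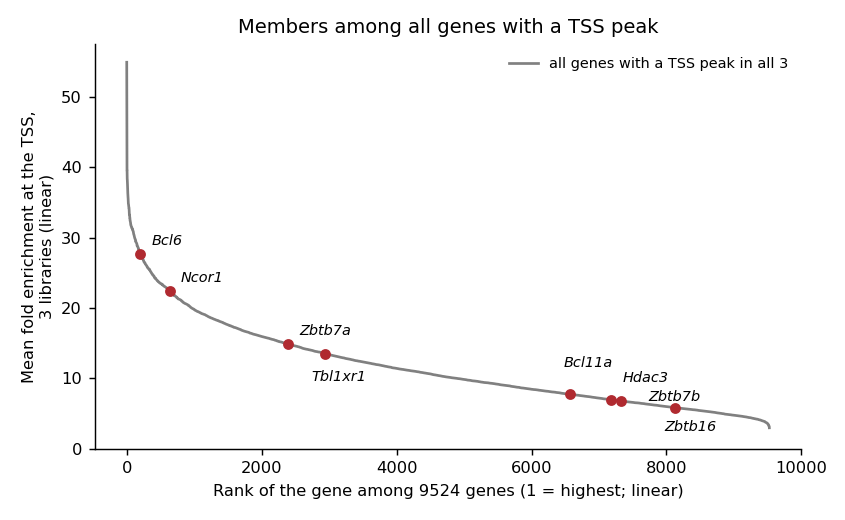
Mean fold enrichment at the TSS over the 3 libraries (linear axis) against rank for the 9524 genes with a TSS peak in all 3 (grey line), with the 8 members as red points. Bcl6 is at rank 203 and Ncor1 at rank 642, and Bcl11a, Hdac3, Zbtb7b and Zbtb16 lie between ranks 6575 and 8128.

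Neighbours in this order were compared within each library. Bcl6 was above Ncor1 in 3 of 3 libraries by means of 27.6 and 22.4, although their ranges overlap (exact sign-flip permutation p = 0.25, two-sided). Ncor1 was above Zbtb7a and Tbl1xr1 was above Bcl11a in 3 of 3 libraries with no overlap of ranges (exact permutation p = 0.25 each). That is the smallest p that 3 libraries allow, so no order here could pass 0.05. The other neighbours kept their order in 2 of 3 libraries, with an exact permutation p of 0.5 for Zbtb7a over Tbl1xr1, for Bcl11a over Hdac3 and for Zbtb7b over Zbtb16, and of 0.75 for Hdac3 over Zbtb7b. Thus no neighbours among Bcl11a, Hdac3, Zbtb7b and Zbtb16 differed beyond the spread between libraries, whereas Bcl11a and Hdac3 were each above Zbtb16, which is not their neighbour, in 3 of 3 libraries with overlapping ranges. The corepressor subunits did not share a level, since Ncor1, Tbl1xr1 and Hdac3 had means of 22.4, 13.5 and 6.96 and ranges that do not overlap.

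Bcl6b, the relative of Bcl6 known from lymphocytes and endothelium, had no peak at either of its protein-coding start sites or inside its 5.67 kb (chr11:70224128-70229798, minus strand). With a minimum of 8 to 9 fragments at a called summit, weaker acetylation was not detectable at this depth. The 4, 3 and 5 peaks in its window all lay at the starts of other genes. They were at Rnasek and its overlapping neighbours 0610010K14Rik and Gm21988, where the regions found in all 3 libraries began at chr11:70237285 and chr11:70237989 and had mean fold enrichments of 5.76 ± 0.411 and 7.9 ± 2.02 (SD, n = 3), and at Slc16a13, with peaks of 3.34 and 4.21 in replicate 3 alone.

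It was next asked how acetylation inside the genes compared with that at their starts. Intragenic peaks overlap the gene body and no TSS window of any gene. They numbered 21, 23 and 18 over the 9 members (20.7 ± 2.52, SD, n = 3), beside 25, 22 and 20 TSS-proximal peaks (22.3 ± 2.52). A further 11, 9 and 12 peaks lay at the TSS of another gene and 3, 4 and 4 in the flanks.

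**Figure D3:**
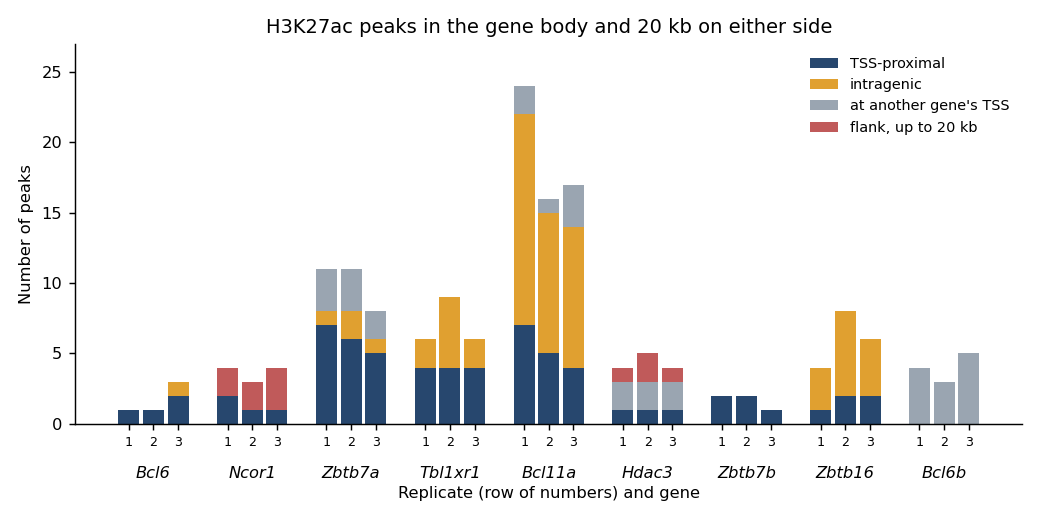
Number of H3K27ac peaks in the gene body and 20 kb on either side of each member, with a stacked bar for each of the 3 libraries, coloured by the place of the peak. Bcl11a has 15, 10 and 10 intragenic peaks, Bcl6b has peaks at other genes' starts only, and Ncor1 has none inside the gene.

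To see how far sites recurred, peaks that overlapped between libraries were joined into regions, 43 of them intragenic and 27 TSS-proximal. Every library had a peak in 5 of the intragenic regions (11.6%), while 5 were in 2 libraries and 33 in 1. Every library had a peak in 16 of the TSS-proximal regions (59.3%), while 4 were in 2 libraries and 7 in 1, and 1 of the 16, at Bcl11a, held intragenic peaks in replicates 2 and 3. Fold enrichments in the intragenic regions ran from 2.85 to 6.49 over all members.

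An intragenic peak in all 3 libraries, at any place in the gene, was found in 4 of 9 members (Bcl11a, Zbtb16, Tbl1xr1 and Zbtb7a), against 6.24% of all protein-coding genes. Longer genes can hold more peaks. Among genes of at least 90 kb, 21.4% (602 of 2809) had one, and of the 4 members of this length, Zbtb16, Ncor1, Tbl1xr1 and Bcl11a, all but Ncor1 did. The intragenic levels of these members, 4.19 to 5.99 in mean fold enrichment, lay near the median of 5.04 for the 1368 genes with such peaks.

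Bcl11a had the most. In its 96.1 kb there were 15 intragenic peaks in replicate 1 and 10 in each of the others, of which all but 2 formed 21 regions, 3 in all 3 libraries, 5 in 2 and 13 in 1. The exceptions, in intron 1 in replicates 2 and 3, overlapped a TSS-proximal peak of replicate 1 and were counted with that region. The 21 regions lay in intron 2, between 17.4 and 79.8 kb from the start of the gene, and fold enrichments ran from 3.04 to 6.49. Of the 3 recurrent regions, that at chr11:24118865-24119680 had 3.76, 4.3 and 5.85 (4.64 ± 1.09, SD, n = 3), that at chr11:24141893-24142812 had 3.76, 5.62 and 4.56 (4.64 ± 0.937), and that at chr11:24138682-24139147 had 3.63, 3.24 and 3.32 (3.39 ± 0.206). In the first of these the peaks of the 3 libraries overlapped in a chain and shared no base. The strongest single intragenic peak differed by library, at 6.49 from 18 fragments (10.7 to 28.4) in replicate 1 and at 5.62 and 5.85 in the others. A further group of peaks in intron 2, with 3.44 to 5.8, lay at the start of the noncoding gene Gm12064 and was counted with the peaks at other genes.

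Zbtb16 is the longest member, at 182 kb, and held 3, 6 and 4 intragenic peaks, all in intron 2. They formed 10 regions, of which 1 was found in all 3 libraries, at chr9:48814358-48815372, about 21.6 kb from the start, with 3.32, 4.3 and 5.85 (4.49 ± 1.28, SD, n = 3). No base was shared by the peaks of all 3 libraries there. The other 9 regions were each in 1 library.

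In Tbl1xr1 the 2, 5 and 2 intragenic peaks formed 9 regions, each found in 1 library, so that no site recurred although every library had a peak. They lay in introns 1 and 2 and had 2.98 to 5.2. Zbtb7a, a gene of 17.8 kb, had 1 recurrent intragenic region in intron 1 at chr10:81142592-81143134, with 4.52, 4.12 and 3.93 (4.19 ± 0.3, SD, n = 3).

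**Figure D4:**
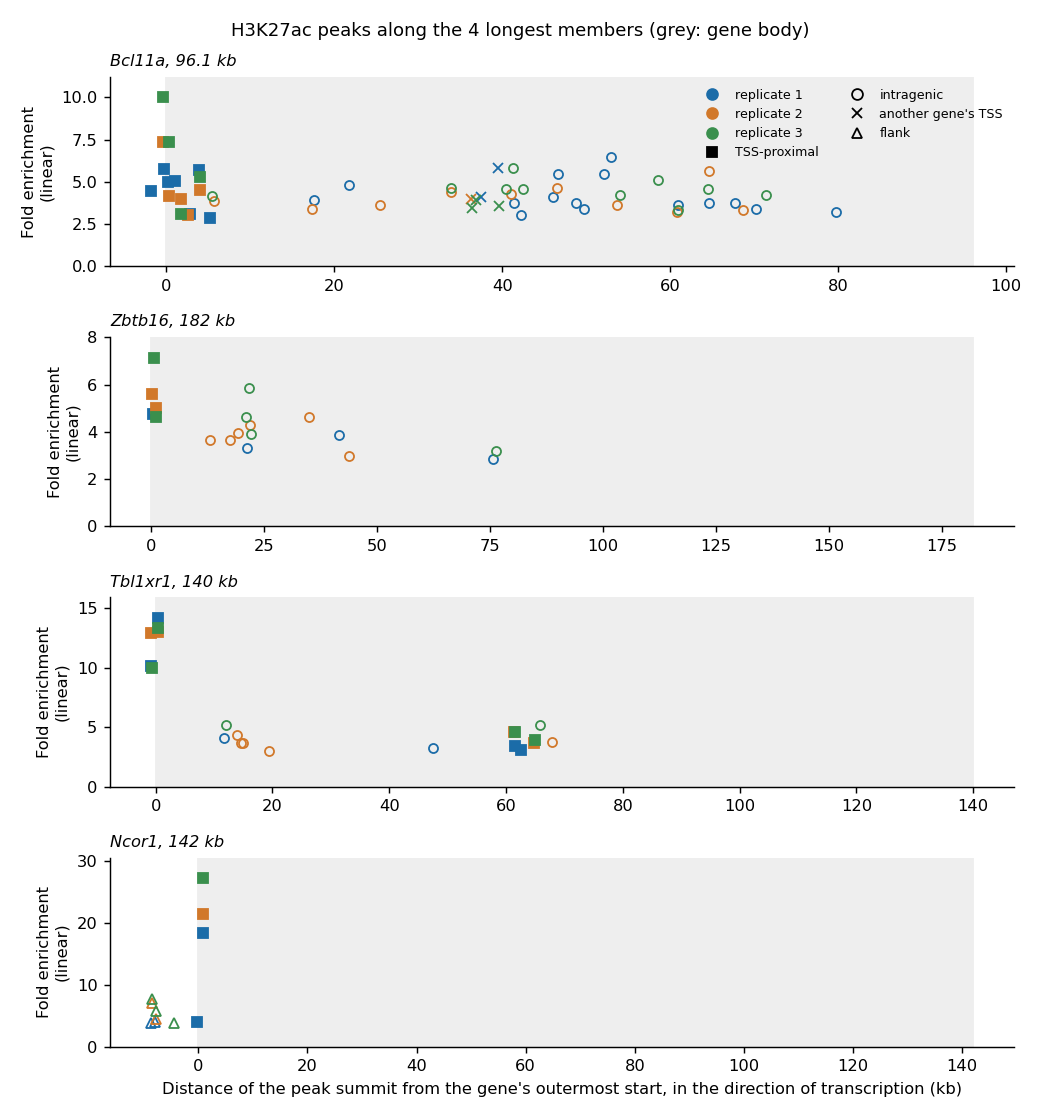
Fold enrichment of each H3K27ac peak (linear axis) against the distance of its summit from the gene's outermost start in kb, in the direction of transcription, for the 4 longest members, with colours for libraries, symbols for the place of the peak and grey for the gene body. Bcl11a has intragenic peaks out to 79.8 kb at 3.04 to 6.49, Zbtb16 has them in the 76.4 kb nearest its start, and Ncor1 has a promoter peak and upstream peaks about 7.84 and 8.53 kb away with no intragenic peak.

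In each library the strongest TSS peak was then set against the strongest intragenic peak of the same gene. At Zbtb7a the ratio was 3.43, 3.07 and 4.19 (3.56 ± 0.57, SD, n = 3) and at Tbl1xr1 it was 3.47, 3.02 and 2.55 (3.01 ± 0.461). Zbtb16 had ratios of 1.23, 1.21 and 1.22 (1.22 ± 0.00777). Its TSS and intragenic values were both lowest in replicate 1, at 4.78 and 3.89, and highest in replicate 3, at 7.15 and 5.85. The strongest intragenic peak of Zbtb16 was a different site in each library. Its summits held 14, 13 and 17 fragments, against 13, 16 and 21 at the TSS, with overlapping Poisson intervals in every library. In replicate 1 the TSS was higher only through its lower local background, 1.93 against 2.86. The small SD of these ratios therefore does not reflect counting error. At Bcl11a the ratio was 0.891, 1.31 and 1.71 (1.3 ± 0.408), so that the start was not the strongest site in replicate 1. The TSS was thus higher in 3 of 3 libraries at Zbtb7a, Tbl1xr1 and Zbtb16 (exact sign-flip permutation p = 0.25 each, two-sided, the smallest possible) and in 2 of 3 at Bcl11a (exact permutation p = 0.5). Over all 1134 genes with both kinds of peak in all 3 libraries, the TSS was higher in all 3 in 80.4%, and 3 of 4 members is near that share.

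**Figure D5:**
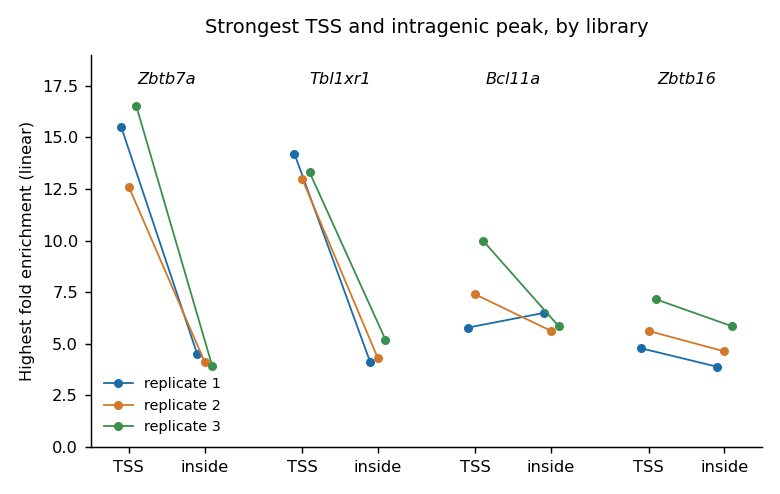
Fold enrichment (linear axis) of the strongest TSS-proximal peak and the strongest intragenic peak in each library, joined by a line, for the 4 members with both in all 3 libraries. The lines fall steeply at Zbtb7a and Tbl1xr1 and by little at Zbtb16, and at Bcl11a that of replicate 1 goes up from 5.78 to 6.49.

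The genes most like Zbtb16 in these 6 values were Stx7, Rad51b and Mob3a, by the Euclidean distance of their log2 fold enrichments (0.284, 0.39 and 0.428) among the 1134 genes. Stx7 had 5.46, 5.62 and 6.65 at the TSS and 3.95, 5.0 and 6.45 inside the gene. This describes levels over 3 libraries of 1 cell type.

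Super-enhancers (SEs), clusters of peaks with a high summed signal, were then located by stitching neighbouring peaks and ranking the stitched regions by the sum of fold enrichment times length. Regions above the point of slope 1 on the scaled curve of ranks were called SEs. There were 1383, 1083 and 1190 of them in replicates 1, 2 and 3, out of 11779, 12327 and 11525 stitched regions. The call was thus a broad class, which a promoter peak alone could enter. An SE was assigned to Bcl6, Zbtb7a and Ncor1 in all 3 libraries, hence to 3 of 9 members in at least 2 libraries, against 8.3% of all protein-coding genes. Bcl6 ranked 307, 171 and 356 among 11779, 12327 and 11525 stitched regions. In replicates 1 and 2 this SE was the promoter peak alone, of 1.49 and 2.15 kb, and in replicate 3 it held 3 peaks over 4.63 kb. Ncor1 ranked 434, 109 and 115, with its promoter and upstream peaks joined over 10.6 kb in each library. Zbtb7a ranked 396, 228 and 150 over about 14.0 kb, a stretch that takes in the TSS peak of Map2k2, a MAP kinase kinase gene next to it, where the fold enrichment was 8.64, 9.05 and 8.43.

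Bcl11a passed in replicate 2 alone. There 16 peaks joined over 70.1 kb and ranked 702, whereas in replicates 1 and 3 the stitched regions at its start ended after 23.7 and 7.02 kb and ranked 1534 and 1251. The SE calls at Bcl6, Zbtb7a and Ncor1 all rested on promoter peaks. When peaks within 2.5 kb of a TSS were left out before stitching, these 3 genes had an SE in 0 libraries and Bcl11a had one in 3 of 3. Tbl1xr1, Hdac3, Zbtb7b and Zbtb16 had no SE in any library, and the stitched region of Tbl1xr1 came closest at ranks 1803, 1571 and 2294. Stitching within 5 kb gave Bcl11a an SE in 2 libraries and Tbl1xr1 in 1, so that 4 members had one in at least 2 libraries.

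To place the members among their families, the same measures were taken over 41 other BTB zinc-finger genes and 22 other genes of corepressor complexes. A TSS peak in all 3 libraries was found at 34 of the 41 BTB zinc-finger genes (82.9%), with a median of the means of 12.2. The highest were Zbtb11 at 24.8 ± 0.998 and the divergent pair Zbtb1 and Zbtb25, which share a promoter and have the same value of 24.2 ± 3.38 (SD, n = 3). The lowest were Zbtb12 at 3.59 ± 0.511, Zbtb40 at 4.22 ± 0.116 and Zbtb20 at 5.17 ± 0.47. Bcl6, at 27.6, was thus above the mean of every other BTB zinc-finger gene listed, and Zbtb16 and Zbtb7b were in the lower part of their range. Zbtb11 had 25.1, 23.7 and 25.6 against 28.5, 23.4 and 31.0 at Bcl6, so Zbtb11 was higher in replicate 2 and the ranges overlap. Hic1, Zbtb22, Zbtb32, Zbtb46, Zbtb7c and Zbtb8b had no TSS peak in any library, as Bcl6b had none, and Zbtb3 had one in replicate 2 alone, at 3.43. An intragenic peak in all 3 libraries was found in 2 of the 41, and an SE in at least 2 libraries in 11. The 11 included Zbtb22, which had no TSS peak of its own. They also counted both Zbtb1 and Zbtb25, and both Zbtb6 and Zbtb26, which likewise have the same TSS values.

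Of the 22 other corepressor genes, 20 had a TSS peak in all 3 libraries (90.9%), with a median of 13.2. Gps2, which encodes another subunit of the NCOR1 complex, was highest at 22.0 ± 4.89, followed by the class IIa deacetylase genes Hdac4 at 20.0 ± 0.985 and Hdac5 at 19.7 ± 1.74 (SD, n = 3). Among the lowest were Hdac7 at 7.4 ± 1.68 and Chd4, the remodeller of the NuRD complex, at 8.8 ± 0.949. Hdac9 had no TSS peak in any library and Bcorl1 had one in replicates 2 and 3. Intragenic peaks in all 3 libraries were present in 8 of the 22 (36.4%) and SEs in at least 2 libraries in 7. Bcor itself had TSS values of 9.9, 7.94 and 9.52, and these peaks say nothing of its deleted exons.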

How the data were processed

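H3K27ac ChIP-seq peak lists of 3 BcorΔE9-10 KL libraries were used. Per the study's methods and processing notes, the authors trimmed reads with cutadapt 1.7 and used Bowtie2 for alignment to GRCm38; after duplicate removal, MACS2 2.1.1 called peaks in every library by itself. The control used for these calls is not given in the sources used here. The deposited files give each summit a fold enrichment (a ratio to local background, not scaled between libraries), the −log10 of the p-value and of the q-value, a score and the summit's position. The score deposited by the authors was not used.

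Rows with the same interval were treated as 1 peak, keeping the largest fold enrichment. Fragments at each summit and the depth were recovered from fold enrichment and p-value, which both follow from fragments and background (100% of rows, fragment length 200 bp), and Poisson intervals cover counting error only. Genes and TSSs were GENCODE M21 on GRCm38, counted from 1, and overlaps were counted from 1 bp. A peak was TSS-proximal within 2.5 kb of a protein-coding TSS of the gene, otherwise at another gene's TSS, intragenic or in the flank. The placement steps were tested on simulated data. The study called SEs with HOMER from tag counts. Here they were built from peaks, stitched over a gap between the 5 and 20 kb tried as alternatives. Calls can therefore differ, and an SE called here need not be an SE in the study.

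Promoter sequences came from RefSeq for 6 of 9 members (9 windows). With 1 group there was no test between conditions; ratios and neighbours were compared by exact sign-flip permutation over 3 libraries. All 9 members are named, with the 3 highest and 3 lowest of each family list and those with no TSS peak, except 1 result that is not reported here; the members, lists and motifs were chosen with earlier results of these data known. Python 3.11.15, numpy 2.4.6, scipy 1.17.1, pandas 2.3.3 and matplotlib 3.10.9 were used. Alternatives were stricter peaks, other windows and stitching distances, other sets of TSSs, placement by summit, other measures of height and leaving out each library.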

Additional observations from a re-analysis of the deposited data

How the results depend on the processing

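The stricter threshold (−log10 q of at least 5) lowered the peaks in the 9 windows from a mean of 57.3 to 28.3 per library, the members with intragenic peaks in all 3 libraries from 4 to 1 (Bcl11a) and those with a higher TSS in all 3 from 3 to 0, as fewer genes had both kinds of peak, and raised the median TSS level from 10.6 to 13.5 with Zbtb7b lost. Windows of 50 kb gave 68.7 peaks and counting every summit row 79.0. Leaving TSS peaks out before stitching changed the members with an SE from 3 to 1. Leaving out each library gave 56.0 to 59.0 peaks, a median TSS level of 10.1 to 10.9, and 3 to 4 members with a higher TSS (4 without replicate 1, where Bcl11a joined). The other alternatives left these counts within 1.5 times. Of the values of single genes, 62 were counted as unchanged and 1 as moved when a library was left out (SE libraries of Bcl11a, 1 to 0 without replicate 2). A fold enrichment was unchanged if it moved by less than the spread. Leaving out 1 of 3 libraries cannot move a mean by more than their SD, so that count is no test of fold enrichments. Numbers of SE libraries were compared as counts, with 3 of 3 becoming 2 of 2 taken as unchanged. Under other settings, 96 values were unchanged and 7 moved. These 7 were all numbers of libraries with an SE, at Bcl11a (0 with stricter peaks, 2 with stitching within 5 kb, 3 without TSS peaks), Tbl1xr1 (1 within 5 kb), and Bcl6, Zbtb7a and Ncor1 (0 without TSS peaks). Values that no longer existed under a setting were left out of these counts. With the stricter threshold, the TSS value of Zbtb7b and the intragenic values of Zbtb16, Zbtb7a and Tbl1xr1 were lost. With a TSS window of 5 kb, the intragenic value of Zbtb7a was lost. No paired analysis was possible because there was 1 group.

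Peak lists hold no signal under the threshold, so an absent peak is no measure of absent acetylation. Promoters shared with a neighbour cannot be assigned to either gene. The smallest p that 3 libraries allow is 0.25.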
